A study of Rattus norvegicus with 12 samples.

Results

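The comparison described here is the 6 h response of male rat hepatocytes to dexamethasone. Its members are 6 of the 12 arrays in the series, chosen by their titles: 3 of male cultures given dexamethasone and 3 of male cultures given vehicle. Dexamethasone is a synthetic glucocorticoid, and the question asked by the series is which genes it changes in hepatocytes of either sex. The cells were isolated by collagenase perfusion from livers of Sprague-Dawley rats aged 11 weeks, kept for 24 h on collagen with serum and for another 24 h without it. Both groups went through the same isolation and culture. The treated group then received 100 nM dexamethasone (the labels write "nm") and the control group its solvent, 0.01% ethanol, for 6 h. The labels name no number of animals and do not say whether the 3 replicates of a group came from separate rats or separate dishes, so a p-value here reflects only how much the deposited samples vary, and that variation may be technical. A label field for sex reads male for all 12 samples, also for those titled female.

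Glucocorticoids enter the cell and bind the glucocorticoid receptor, a transcription factor that waits in the cytoplasm in a complex with heat shock proteins. The bound receptor moves to the nucleus, where it switches on genes through its own DNA element and restrains inflammatory genes driven by NF-kB and AP-1. In the liver the hormone is known for raising glucose production and the breakdown of amino acids, and for shaping fat handling, while it lowers inflammatory signals throughout the body.

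The 6 arrays were not of equal quality, and quality moved with treatment. Between 45.7% and 55.6% of the 41012 probes were well above background on the 3 vehicle arrays, against 66.5%, 80.4% and 77.2% on dexamethasone replicates 1 to 3. Replicate probes within an array varied by a median of 17.8% to 21.1% on the vehicle arrays, by 14.1% on dexamethasone replicate 1 and by 5.38% to 5.55% on replicates 2 and 3. All 3 vehicle arrays sat on slide 1 with dexamethasone replicate 1, and the other treated arrays sat on slide 2. Levels and differences are therefore given for the 14809 genes whose probe was well above background on all 6 arrays, called measured genes below. All values are on 1 scale, the log2 signal minus the 75th percentile of its array.

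All 20 hepatocyte markers listed were measured on every array, with a summed log2 level of 10.99 to 11.42 in vehicle and 10.82 to 11.07 in dexamethasone, among them Alb, the albumin gene, at 7.61, 8.03 and 7.75 in vehicle and 7.85, 7.59 and 7.55 in dexamethasone. Markers of another liver cell were present too: 16 of 18 tested Kupffer cell and macrophage markers were measured, and none of the 18 passed the test, with a median difference of 0.18 among the measured ones. With the replicate number as a block 3 of the 18, 2 of them measured, were called higher. Their summed level, as log2, ran from 6.01 to 7.03 in vehicle and from 6.22 to 7.18 in dexamethasone. Of the other cell types listed, 5 of 11 stellate cell markers, 3 of 14 endothelial, 5 of 11 cholangiocyte and 3 of 12 lymphocyte markers were measured. Of the markers tested, 1 stellate and 1 endothelial marker were above background on none of the 6 arrays, and 1 of 6 neutrophil and erythroid markers was measured. Summed stellate markers ran from 2.29 to 2.92 in vehicle and from 1.57 to 2.70 in dexamethasone, and summed lymphocyte markers from 0.20 to 1.05 and from 0.04 to 0.64. Summed endothelial markers ran from 3.17 to 3.58 in vehicle and from 2.50 to 3.08 in dexamethasone. Summed cholangiocyte markers ran from 3.99 to 4.33 and from 3.57 to 3.95. The groups did not overlap in these sums, but they did in the sums of the other lists. Of single measured genes 27.7% showed no overlap, and most endothelial and cholangiocyte markers were not measured. The part of these cells in the results was not tested. In RNA from whole cultures, fewer cells of a type and less RNA per cell cannot be told apart.

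Among the genes that rose were Pfkfb1 of glucose metabolism, Tdo2 and Tat of amino acid breakdown, Lpin1 of fat metabolism and the feedback gene Fkbp5, and among those that fell were the chemokines Ccl2, Ccl7, Ccl12 and Cx3cl1. With limma fitted to all 12 arrays, 557 measured genes rose and 887 fell at an adjusted p under 0.05, which is 3.76% and 5.99% of those measured. Male vehicle arrays varied more than the other groups, with a median SD of 0.306 against 0.213 in male dexamethasone and 0.149 and 0.133 in the female groups, all of which enter that fit's shared spread. A fit to the 6 male arrays alone called 64 higher (0.432%) and 32 lower (0.216%). The 61 genes that rose (0.412%) and the 32 that fell (0.216%) in both fits carry most of what follows. A gene said to have risen or fallen passed the 12-array fit, and it passed the 6-array fit too only where "in both fits" is written. Every list count below is to be read beside the 3.76% of measured genes that rose and the 5.99% that fell, and some lists lie near these shares.

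The genes called in both fits differed by 1.21 to 5.40 log2 units upward and by 1.27 to 4.28 downward. Array quality moved with treatment, and its part in these differences was not tested. The median difference was 2.06 for the 61 genes that rose and -1.70 for the 32 that fell. In each of the 93 genes the 3 treated arrays did not overlap the 3 vehicle arrays, a separation seen in 27.7% of all measured genes. The 93 genes were chosen by tests on these same arrays. Their separation and the medians of their pairs therefore follow largely from that choice and are no further support. Same-numbered arrays gave similar medians: 2.02, 2.29 and 1.96 in pairs 1 to 3 for the genes that rose, and -1.74, -2.11 and -1.52 for those that fell.

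Slide and treatment overlapped on slide 1 alone, which held dexamethasone replicate 1 and all vehicle arrays. With the slide as a block, the male difference therefore rested on that 1 treated array and equalled the slide 1 difference. Only its spread was shared over the 12 arrays, so the block is no second check beside slide 1. On slide 1 the genes called in both fits differed by a median of 2.04 and -1.62, with the same sign in 61 of 61 and 32 of 32. The slide 1 arrays are among those on which the genes were chosen, so these signs were nearly fixed by the choice. With the slide as a block in the 12-array fit, 86 measured genes were called higher and 88 lower, among them 49 of the 61 and 25 of the 32. With the slide 1 arrays alone, limma called 0 genes, while 2106 of the 26557 genes tested had an unadjusted p under 0.05. Of the 61 and 32, 40 and 21 passed in each of the fits with a block, by slide or by replicate number. Over all genes tested 1377 rose (5.19%) and 1288 fell (4.85%), and the replicate number as a block gave 1908 and 2268. The balance between rises and falls depended on the scaling: 51.7% of calls were higher, or 38.6% among measured genes, against 66.8% and 42.6% after quantile normalization, 31.9% and 19.8% with each array's median, 66.2% and 56.6% with the percentile over probes bright on all 12 arrays, and 22.9% and 29.6% after normexp. The median measured gene stood at -0.125, and at -0.243 with each array's median.

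**Figure D1:**
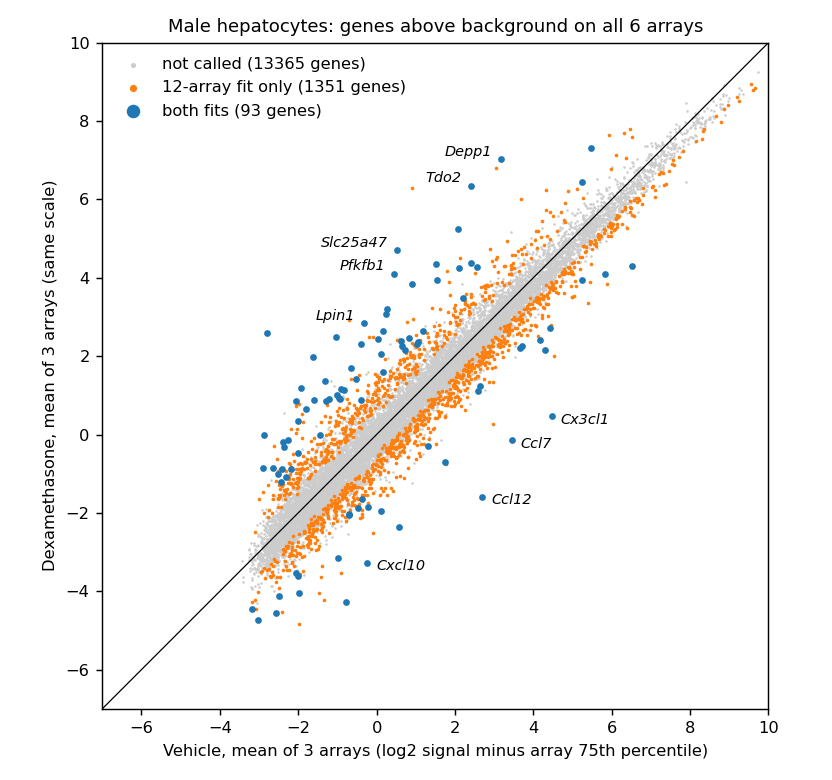
Mean level of each of 14809 measured genes in male vehicle (x axis, 3 arrays) and male dexamethasone (y axis, 3 arrays), as log2 signal minus the array's 75th percentile. Blue points are the 93 genes called in both fits, orange points the 1351 called by the 12-array fit only, and the line marks equal levels; the named chemokines lie far below it and Depp1, Tdo2, Slc25a47, Pfkfb1 and Lpin1 far above.

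The receptor's own gene did not pass the test. Nr3c1, the glucocorticoid receptor, was at -0.13, 0.69 and 0.45 in vehicle and at 0.43, 1.65 and 0.93 in dexamethasone, so its groups overlapped (difference 0.67 ± 0.29, SE, adjusted p = 0.17), although it passed with the replicate number as a block on 12 arrays (adjusted p = 0.029) and not on the 6 male arrays (0.16). Its co-chaperone Fkbp5, which lowers the receptor's affinity for hormone, stood at 0.94, 1.00 and 0.80 in vehicle and at 3.75, 4.24 and 3.54 in dexamethasone. The gene rose in both fits, and its 3 measured probes differed by 2.89 or more. Of 24 measured genes in a list of classical glucocorticoid-induced genes, 14 rose and none fell, 4 of them in both fits, with a median of 1.14.

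Transcription factors rose too, Klf9 of the classical list and Klf15 of the list of hepatocyte transcription factors. Klf9, a Kruppel-like repressor, was at -0.14, 0.32 and 0.35 in vehicle and at 2.61, 2.98 and 2.35 in dexamethasone. Klf15, a Kruppel-like activator of amino acid breakdown, moved from 1.06, 1.89 and 1.71 to 3.65, 4.18 and 3.96. Both rose in both fits, by 2.47 ± 0.19 and 2.38 ± 0.25. Sgk1, a kinase that controls sodium channels, was at -0.92, -1.20 and -0.57 in vehicle and at 0.64, 1.60 and 1.25 in dexamethasone, 4.18-fold higher in both fits, though not with the slide as a block (adjusted p = 0.056). Tsc22d3, which encodes the anti-inflammatory protein GILZ, rose by 1.31 ± 0.21 and Errfi1, an inhibitor of the EGF receptor, by 1.08 ± 0.15, neither of them in the 6-array fit (adjusted p = 0.070 and 0.062). Dusp1, a phosphatase that turns off MAP kinases, was at 3.51, 2.00 and 3.50 in vehicle and 3.71, 3.70 and 4.17 in dexamethasone, and the difference of 0.86 ± 0.36 did not pass (adjusted p = 0.16).

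Enzymes that act on steroids rose as well. Akr1c14, the rat 3-alpha-hydroxysteroid dehydrogenase, was at -1.17, -0.40 and -1.53 in vehicle and at 1.98, 3.09 and 2.37 in dexamethasone, 11.4-fold higher in both fits. Hsd3b1, which acts in steroid synthesis, rose 4.17-fold in both fits, but lost its call without vehicle replicate 2 (adjusted p = 0.056) or without dexamethasone replicate 2 (0.077) or 3 (0.056), and was not called with the slide as a block (0.15) or in the 6-array fit with the replicate number as a block (0.053). They were the 2 rises among the 19 measured genes of the receptor, its chaperones and steroid handling. The falls in that list were Nr3c2, the mineralocorticoid receptor, by 0.65 ± 0.16, and the chaperone Hsp90ab1 by 0.58 ± 0.16; neither call stood in the 6-array fit (adjusted p = 0.20 and 0.24), and leaving out any 1 of the dexamethasone arrays ended each (up to 0.083 and 0.13), as did leaving out vehicle replicate 2 for Nr3c2 (0.054) and 1 for Hsp90ab1 (0.087). The list's median was -0.29.

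**Figure D2:**
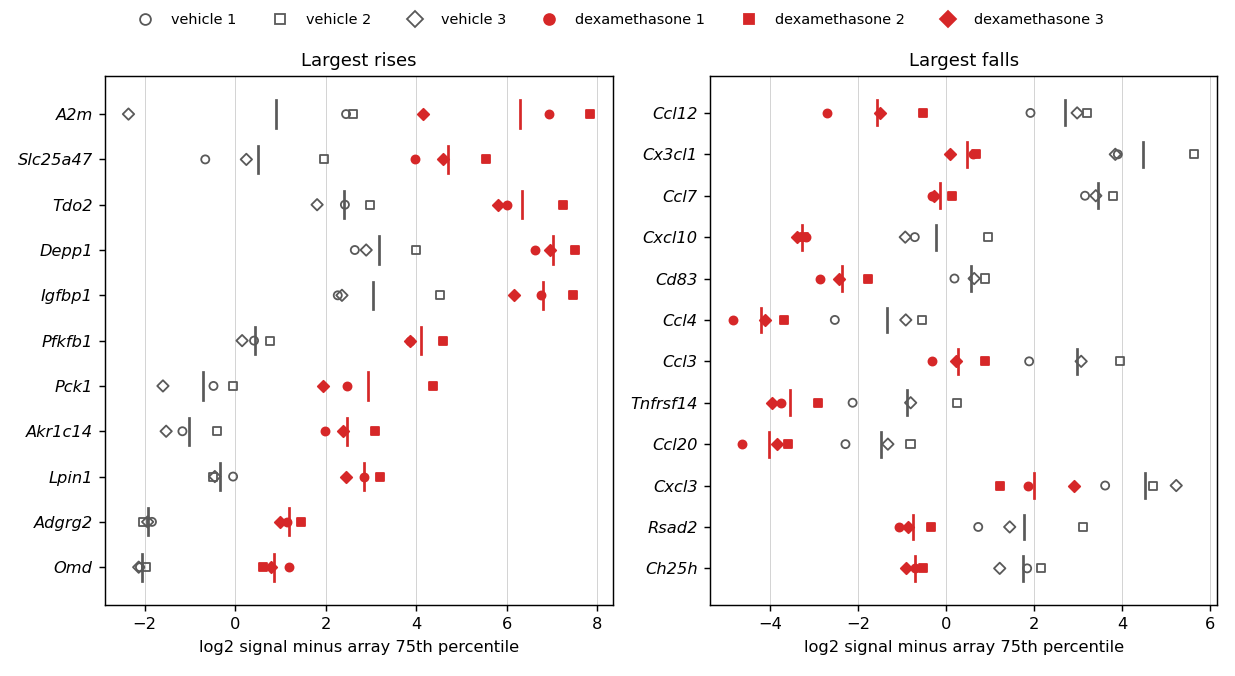
Values on each of the 6 male arrays for 11 of the 12 named genes with the largest rises (left) and the 12 with the largest falls (right), all measured; the x axis is the log2 signal minus the array's 75th percentile. Open grey symbols are vehicle, filled red symbols dexamethasone, the shape gives the replicate number and the bars are group means. For each gene the colours do not overlap, which was a condition of the rule for naming the largest changes.

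In glucose metabolism the largest rise was that of Pfkfb1, the liver isoform of the enzyme that makes and removes fructose 2,6-bisphosphate. It was at 0.42, 0.77 and 0.15 in vehicle and at 3.85, 4.59 and 3.87 in dexamethasone, a 12.6-fold rise in both fits (3.66 ± 0.24, adjusted p = 4.5e-05). Pck1, the cytosolic PEP carboxykinase that commits carbon to gluconeogenesis, was at -0.48, -0.05 and -1.60 in vehicle and at 2.46, 4.37 and 1.94 in dexamethasone. Its groups were far apart, but the treated arrays spread widely, and the 12.4-fold rise was not called in the 6-array fit (adjusted p = 0.059). Pklr, the liver pyruvate kinase of glycolysis, fell by 0.74 ± 0.19 and lost its call without vehicle replicate 2 or any 1 of the dexamethasone arrays (adjusted p up to 0.084). In all, 3 of 17 measured genes of gluconeogenesis and glycogen rose and 1 fell, with a median of 0.21.

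Tdo2, the dioxygenase that opens the ring of tryptophan, was at 2.42, 2.99 and 1.81 in vehicle and at 6.00, 7.24 and 5.80 in dexamethasone, 15.4-fold higher in both fits. Tat, tyrosine aminotransferase, was at 1.61, 1.46 and 1.48 in vehicle and at 4.11, 4.77 and 4.15 in dexamethasone. It rose 7.08-fold in both fits. Of 33 measured genes of amino acid breakdown 3 rose, 2 of them in both fits, and none fell, and with the replicate number as a block 6 of the 33 were called higher. Its median was 0.19. Aspg, an asparaginase outside that list and chosen after its values were seen, rose 6.44-fold in both fits.

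Nitrogen disposal followed in part: 5 of 13 measured genes of the urea cycle and nitrogen handling rose and none fell, with a median of 0.42, and none was called in both fits. Slc25a15, the mitochondrial ornithine carrier of the urea cycle, rose 5.22-fold from 2.15, 1.75 and 1.48 to 3.28, 5.37 and 3.90. Cps1, the carbamoyl phosphate synthetase that starts the cycle, was at -2.03, -1.89 and -1.81 in vehicle and at -0.44, 1.61 and 0.41 in dexamethasone. Its call was lost without vehicle replicate 1 (adjusted p = 0.056) and without dexamethasone replicate 2 (0.077) or 3 (0.059). Glul, glutamine synthetase, rose 2.72-fold. Otc, which makes citrulline, was at -1.64, 0.60 and -0.60 in vehicle and at -1.31, 0.25 and -1.22 in dexamethasone, overlapping values that did not pass.

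Among 24 measured mitochondrial carriers of the SLC25 family 6 rose, 2 in both fits, and none fell, with a median of -0.03, and with the replicate number as a block 5 rose and 2 fell. Slc25a47, a carrier of the mitochondrial inner membrane that is largely restricted to liver, was at -0.66, 1.95 and 0.25 in vehicle and at 3.96, 5.55 and 4.60 in dexamethasone. Slc25a29, a carrier of basic amino acids, was at 0.04, 0.41 and 0.24 in vehicle and at 2.45, 3.79 and 2.99 in dexamethasone. They rose 18.3-fold and 7.21-fold; Slc25a47 was not called with the slide as a block (adjusted p = 0.077).

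These 2 carriers are neighbours in the genome. On rat build rn3, whose gene models were not used here, the probe of Slc25a29 lies at chr6:133173552-133173611 on the minus strand and that of Slc25a47 at chr6:133203833-133203892 on the plus strand, 30.3 kb apart. Within 100 kb on either side of the pair 10 other genes were tested and none passed. On one side Yy1, a zinc finger transcription factor, differed by -0.20 (adjusted p = 0.47), and on the other Wars1, the cytosolic tryptophan tRNA ligase, by -0.19 (adjusted p = 0.48). The 10 differed by -0.53 to 0.23, against 2.85 and 4.19 for the 2 carriers. Not all of the 10 were measured genes, and the gene at 0.23 was not. Those measured differed by -0.53 to -0.04.

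In fat metabolism the genes called in both fits acted on triglyceride at 2 different steps. Lpin1, a phosphatidate phosphatase that makes the diacylglycerol for triglyceride and also assists PPAR-alpha in the nucleus, was at -0.05, -0.48 and -0.45 in vehicle and at 2.86, 3.20 and 2.46 in dexamethasone, an 8.97-fold rise. Pnpla2, the lipase that starts the breakdown of stored triglyceride, rose 3.86-fold from 0.39, -0.03 and -0.01 to 1.97, 2.53 and 1.69. Srebf1, a master factor of fatty acid synthesis, fell by 0.88 ± 0.20, and Me1, the malic enzyme that supplies NADPH for it, fell by 0.69 ± 0.18; the first call was lost without vehicle replicate 1 or 2 or dexamethasone replicate 2 or 3 (the highest adjusted p was 0.075), and the second without vehicle replicate 1 or dexamethasone replicate 2 or 3 (up to 0.13). Of 28 measured genes of fatty acid and triglyceride synthesis 2 rose and 2 fell, with a median of 0.00, and with the replicate number as a block 4 rose and 5 fell.

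Fatty acid oxidation and ketogenesis gave 4 rises and 3 falls among 32 measured genes, with a median of 0.05 and no call in both fits. With the replicate number as a block there were 7 rises and 4 falls. Acsl1, which activates long-chain fatty acids, fell by 0.83 ± 0.14 from 6.16, 6.11 and 5.92 to 5.13, 5.26 and 5.30. Ppara, the nuclear receptor that drives oxidation genes, was above background on 2 of 3 vehicle arrays and so is not among the measured genes. It was at -3.31, -2.87 and -2.77 in vehicle and at -0.92, -0.49 and -0.71 in dexamethasone. It was called higher in both fits, although not every vehicle value was well above background.

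In cholesterol metabolism Insig2 fell. The protein holds the SREBP factors in the endoplasmic reticulum. Insig2 was at 3.71, 3.93 and 3.46 in vehicle and at 2.32, 2.23 and 2.22 in dexamethasone, and was 2.72-fold lower in both fits, with its second probe at -1.13. Ch25h, the enzyme that makes 25-hydroxycholesterol, a sterol with antiviral action that immune cells induce, fell 5.46-fold in both fits from 1.84, 2.15 and 1.22 to -0.70, -0.52 and -0.91. Of 34 measured genes of cholesterol synthesis and uptake 1 rose and 2 fell, with a median of -0.13; with the replicate number as a block 3 rose and 5 fell. Bile acid genes gave 1 rise and 2 falls among 25 measured (6 and 4 with that block), with a median of -0.17. The rise was that of Cyp27a1, a sterol 27-hydroxylase, by 1.07 ± 0.25, lost without vehicle replicate 1 or 3 or dexamethasone replicate 2 (adjusted p up to 0.091).

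Of 35 measured cytochromes P450 and xenobiotic receptors 2 rose and 1 fell, 0 of them in both fits, and with the replicate number as a block 5 rose and 2 fell. Sult1a1, a phenol sulfotransferase, rose 5.26-fold from 1.17, 3.46 and 1.73 to 4.09, 5.10 and 4.36, and its call was lost without dexamethasone replicate 2 (adjusted p = 0.052). Among 39 measured genes of phase II conjugation and reduction 3 rose and 1 fell (8 and 2 with the block), with a median of -0.02.

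2 cytochromes of male rat liver followed the replicate number. Cyp3a2, a steroid 6-beta-hydroxylase of male rat liver, was at -0.37, 1.49 and 1.86 in vehicle replicates 1 to 3 and at -0.32, 1.38 and 1.85 in dexamethasone replicates 1 to 3. Cyp2c11, the chief male-specific cytochrome, was at 1.53, 0.06 and 1.80 in vehicle and at 0.94, -0.49 and 1.42 in dexamethasone. For both genes the replicate that was lowest in vehicle was also the lowest in dexamethasone. Neither passed (adjusted p = 0.99 and 0.68), but Cyp2c11, lower in all 3 pairs, passed with the replicate number as a block on 12 arrays (-0.51, adjusted p = 0.036) and not on the 6 male arrays (0.21).

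A2m, alpha-2-macroglobulin, a plasma protease inhibitor that is a strong acute phase protein of the rat, had the largest difference of all measured genes. It was at 2.45, 2.59 and -2.36 in vehicle and at 6.92, 7.83 and 4.16 in dexamethasone. Replicate 3 was by far the lowest in both groups, and each pair rose, but the gene was not called in the 6-array fit (5.41 ± 1.20, adjusted p = 0.021, against 0.13), and its call was lost without dexamethasone replicate 1 (adjusted p = 0.056) or 2 (0.076). With the replicate number as a block it was called in both fits (adjusted p = 0.0020 and 0.019). Hamp, hepcidin, which limits iron release, rose by 1.35 ± 0.19 from 6.79, 6.46 and 6.13 to 7.89, 7.95 and 7.59, not in the 6-array fit (adjusted p = 0.060). Of 32 measured acute phase proteins 3 rose and 1 fell (4 and 2 with the block), with a median of 0.05. The fall was that of Fgb, the fibrinogen beta chain, whose probes went apart, from -0.73 to 1.08, and its call was lost without dexamethasone replicate 2 (adjusted p = 0.058) or 3 (0.071).

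Of 10 measured CC chemokines 6 fell and none rose, 3 of them in both fits, with a median of -2.39. The median over all 16 tested, dim ones included, was -0.48, and with the replicate number as a block 2 dim members were called higher, Ccl17 and Ccl28, each above background on no vehicle array. Ccl7, which attracts monocytes, was at 3.16, 3.79 and 3.40 in vehicle and at -0.33, 0.14 and -0.27 in dexamethasone, 12.1-fold lower, and its second probe differed by -4.32. Ccl12, a monocyte chemokine of rodents, was at 1.92, 3.20 and 2.98 in vehicle and at -2.72, -0.53 and -1.51 in dexamethasone, 19.5-fold lower. Ccl2, the main monocyte chemokine, was at 5.96, 7.01 and 6.59 in vehicle and at 4.17, 4.26 and 4.44 in dexamethasone, 4.70-fold lower. For all 3 the gap between the groups was wider than the range within either.

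These 3 genes lie close together. On rn3 their probes are at chr10:70271542-70271601 (Ccl2), chr10:70282297-70282356 (Ccl7) and chr10:70335965-70336024 (Ccl12), all on the plus strand. Ccl3 and Ccl4, the macrophage inflammatory proteins 1 alpha and beta, fell by 2.71 ± 0.50 and 2.88 ± 0.67, and Ccl20, which attracts cells through the receptor Ccr6, by 2.56 ± 0.53. None of these further falls was called in the 6-array fit (adjusted p = 0.070, 0.064 and 0.052). The call of Ccl4 was lost without vehicle replicate 2 (adjusted p = 0.064) or dexamethasone replicate 1 (0.067) or 3 (0.061).

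Of 9 measured CXC and CX3C chemokines 4 fell and none rose, with a median of -0.72. Cx3cl1, the membrane-bound chemokine fractalkine, was at 3.90, 5.65 and 3.85 in vehicle and at 0.62, 0.69 and 0.08 in dexamethasone, 16.0-fold lower in both fits. Cxcl10, an interferon-induced attractant of T cells, was at -0.71, 0.94 and -0.93 in vehicle and at -3.19, -3.23 and -3.41 in dexamethasone, 8.21-fold lower in both fits but not with the slide as a block (adjusted p = 0.053). Cxcl3 and Cxcl2, which attract neutrophils, fell by 2.52 ± 0.46 and 1.64 ± 0.27, outside the 6-array fit (adjusted p = 0.082 and 0.079). Cxcl1, a neutrophil chemokine of the same family, was at 4.75, 5.41 and 5.19 in vehicle and at 4.32, 4.95 and 4.80 in dexamethasone, and did not pass (-0.42 ± 0.22, adjusted p = 0.24). It was lower in each same-numbered pair, although the groups overlapped.

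Promoter letters were read because inflammatory genes differed in their response. Only promoters that hold the letters searched for are printed. The 250 bases before the start of Ccl7 and Cxcl10, which fell, and of Cxcl1 and Nfkbia, which did not pass, are printed 5′ to 3′ on the gene's strand, from RefSeq on build GRCr8. Capitals mark the letters searched for an NF-kB site on either strand, GGGA and TTCC with any 2 bases between them, overlapping matches merged.
Ccl7: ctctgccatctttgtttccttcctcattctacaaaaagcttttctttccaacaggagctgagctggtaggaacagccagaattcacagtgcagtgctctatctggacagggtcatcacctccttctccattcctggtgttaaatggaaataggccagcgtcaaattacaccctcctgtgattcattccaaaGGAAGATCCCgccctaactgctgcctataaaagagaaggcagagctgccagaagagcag
Cxcl10: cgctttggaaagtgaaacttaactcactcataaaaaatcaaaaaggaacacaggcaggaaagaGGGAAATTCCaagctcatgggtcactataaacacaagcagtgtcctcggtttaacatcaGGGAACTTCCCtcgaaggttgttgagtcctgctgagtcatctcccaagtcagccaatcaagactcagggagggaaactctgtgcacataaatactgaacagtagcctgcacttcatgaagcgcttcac
Cxcl1: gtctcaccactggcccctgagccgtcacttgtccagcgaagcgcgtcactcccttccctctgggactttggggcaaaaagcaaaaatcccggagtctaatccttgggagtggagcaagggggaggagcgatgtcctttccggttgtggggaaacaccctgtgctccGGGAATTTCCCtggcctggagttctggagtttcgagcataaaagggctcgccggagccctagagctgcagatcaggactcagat
Nfkbia: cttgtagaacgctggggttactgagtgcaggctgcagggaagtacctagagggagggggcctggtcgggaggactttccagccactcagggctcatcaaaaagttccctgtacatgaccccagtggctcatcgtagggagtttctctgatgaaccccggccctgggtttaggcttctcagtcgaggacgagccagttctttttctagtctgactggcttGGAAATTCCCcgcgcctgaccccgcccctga

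The windows lie at chr10:67513845-67514094 on the plus strand (Ccl7), chr14:15988816-15989065 on the plus strand (Cxcl10), chr14:17479322-17479571 on the minus strand (Cxcl1) and chr6:78597073-78597322 on the minus strand (Nfkbia). Of the 32 genes that fell in both fits 18 had a promoter in the table, and 4 of these held the letters (22.2%): Ccl7, Cxcl10, Bfsp1 and Efna4, the last 2 named after their values were seen. The share was 1.07% of all 27457 RefSeq promoters, 1.26% of those of measured genes and 2.45% of the 408 promoters of measured genes that fell in the 12-array fit. Cxcl1 and Nfkbia hold the same letters and did not pass. The chemokines Ccl2, Ccl12 and Cx3cl1 fell in both fits and were not among the genes found with the letters. They had no match or no promoter to search. The letters of the glucocorticoid response element, GNACA and TGTNC with any 3 bases between them, which read the same on both strands, were in 0 of 34 promoters of genes that rose in both fits, in 2 of 264 of the 12-array rises and in 0.364% of all promoters. A match is a description of letters and not a measured site.

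Il1b, the interleukin 1 beta gene, was at 0.81 and 1.08 on vehicle replicates 1 and 3, its spot on replicate 2 being an outlier, and at -3.91, -3.18 and -4.69 in dexamethasone (difference -4.87 ± 0.39, with n = 2 in vehicle). Il1a, its sister cytokine, was dim, above background on 4 of the 6 arrays, at -3.35, -1.83 and -2.63 in vehicle and -6.63, -5.50 and -6.20 in dexamethasone. Il1r2, a receptor that binds interleukin 1 without signalling, was above background on 1 vehicle array and went the other way, from -5.41, -3.92 and -2.99 to 0.69, 1.01 and 1.10. All 3 were called in both fits, but for Il1a and Il1r2 the call sets the higher group against some values not well above background, and these genes were named after their values were seen.

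Signalling parts of the interleukin 6 receptor rose together. Il6r, the chain that binds the cytokine, was at 0.34, 0.97 and -0.52 in vehicle and at 3.09, 3.50 and 3.00 in dexamethasone, 7.64-fold higher in both fits but not with the slide as a block (adjusted p = 0.10). Il6st, the shared signalling chain gp130, rose 3.53-fold from 1.14, 1.82 and 1.29 to 3.23, 3.77 and 2.71 (6-array adjusted p = 0.059). Csf2, the granulocyte-macrophage colony stimulating factor, fell by 1.63 ± 0.23 in both fits from -2.27, -2.79 and -2.40 to -4.15, -4.33 and -3.89. Among 16 measured cytokines and receptors 3 rose and 2 fell, with a median of 0.25.

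NF-kB genes fell by smaller steps. Of 21 measured factors, inhibitors and inducible enzymes 9 fell, none rose and none was called in both fits, with a median of -0.38. Icam1, a leukocyte adhesion molecule, was at 5.30, 5.44 and 4.83 in vehicle and 4.37, 4.16 and 4.11 in dexamethasone, while Ripk2, a kinase of innate immune signalling, fell by 1.65 ± 0.29 and the inhibitor Nfkbie by 1.45 ± 0.27. Nfkbia, the best known inhibitor of NF-kB, was at 4.37, 4.71 and 3.73 in vehicle and at 4.79, 4.98 and 4.36 in dexamethasone; it was higher in every same-numbered pair, yet the groups overlapped and it did not pass (0.44 ± 0.25, adjusted p = 0.30). Cd83, a surface marker of activated immune cells outside these lists, fell 7.67-fold in both fits from 0.19, 0.89 and 0.64 to -2.88, -1.79 and -2.43. Tnfrsf14, a receptor of the tumour necrosis factor family, fell 6.26-fold (6-array adjusted p = 0.089).

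Interferon response genes gave falls too: 7 of 32 measured members fell, none rose and 1, Cxcl10, was called in both fits, with a median of -0.34. Irf1, a transcription factor induced by interferon, was at 0.98, 1.60 and 0.65 in vehicle and at -0.11, -0.73 and -0.57 in dexamethasone (adjusted p = 0.0054, 6-array 0.071). Rsad2, the antiviral protein viperin, fell 5.75-fold from 0.73, 3.12 and 1.44 to -1.07, -0.35 and -0.86 (6-array 0.096). Vehicle replicate 2 was the highest array for Cxcl10, Rsad2, Irf1 and Cx3cl1. In each of these 4 genes the treated arrays still lay below the lowest vehicle array.

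Insulin and growth signals changed in single genes. Of 27 measured members of insulin and IGF signalling 5 rose and 1 fell (7 and 2 with the replicate number as a block), with a median of -0.04. Igfbp1, a secreted protein that binds insulin-like growth factors, was at 2.27, 4.52 and 2.36 in vehicle and at 6.76, 7.46 and 6.16 in dexamethasone, 13.4-fold higher (6-array adjusted p = 0.051). Sesn1, a sestrin that restrains the growth kinase mTORC1, was at 0.38, -0.72 and -0.83 in vehicle and at 2.41, 2.43 and 2.08 in dexamethasone, 6.47-fold higher in both fits. Irs2, the insulin receptor substrate, rose by 1.40 ± 0.19 (6-array 0.059). Depp1, a FOXO-induced gene linked to autophagy, was at 2.64, 3.99 and 2.89 in vehicle and at 6.62, 7.51 and 6.95 in dexamethasone, 14.5-fold higher in both fits.

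In the TGF-beta family 4 of 26 measured genes fell and none rose, with a median of -0.32, and with the replicate number as a block 1 rose and 7 fell. Inhbe, a liver inhibin subunit, fell by 1.24 ± 0.18 and the repressor Tgif1 by 0.98 ± 0.16. Among immediate early factors 2 of 25 rose and 4 fell, with a median of -0.31. Atf3, a stress-induced factor, fell by 1.16 ± 0.20 and Id3, an inhibitor of basic helix-loop-helix factors, by 1.20 ± 0.21, while Btg2, an antiproliferative gene, rose by 1.05 ± 0.19. None of these 5 passed in the 6-array fit (adjusted p from 0.071 to 0.095).

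In the lists of junctions, survival, cytoskeleton and NRF2 targets 1 measured gene each was called in both fits: Cldn1, Birc2, Vim and Osgin1. Cldn1, a barrier-forming claudin of tight junctions, was at -2.60, -2.75 and -3.28 in vehicle and at 0.09, -0.07 and -0.02 in dexamethasone, 7.34-fold higher, one of 2 rises and 2 falls among 25 measured junction genes (3 and 6 with the replicate number as a block). The other rise, Cldn4, rested on 1 of its probes (0.95), since the second differed by -1.44. Vim, the intermediate filament vimentin, rose 3.07-fold from 0.71, 1.07 and 0.74 to 2.33, 2.47 and 2.58. Birc2, an inhibitor of apoptosis proteins, rose 3.57-fold from -1.17, -0.99 and -0.61 to 1.24, 0.35 and 1.14. Osgin1, an oxidative stress growth inhibitor induced by NRF2, fell 3.39-fold from 4.24, 4.08 and 4.22 to 2.62, 1.86 and 2.77, but not with the slide as a block (adjusted p = 0.054).

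An adhesion receptor and a matrix gene were also among the largest rises. Adgrg2, an adhesion G protein-coupled receptor, was at -1.84, -2.03 and -1.94 in vehicle and at 1.15, 1.44 and 0.98 in dexamethasone. Omd, osteomodulin, a matrix proteoglycan first described in bone, was at -2.11, -1.97 and -2.13 in vehicle and at 1.20, 0.61 and 0.80 in dexamethasone. Their replicates lay close together, and both rose in both fits, 8.73-fold and 7.64-fold.

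Of the 61 and 32 measured genes called in both fits 40 and 21 carry a gene symbol, and those not in the lists were named after their values were seen. Among them were Mfsd2a, a transporter of lysophospholipids that carry omega-3 fatty acids, 5.54-fold higher, and Slc28a2, a concentrative nucleoside transporter, 4.30-fold higher but not with the slide as a block (adjusted p = 0.093). Edem1, which helps to clear misfolded glycoproteins from the endoplasmic reticulum, rose 3.57-fold from 5.69, 5.36 and 5.35 to 7.14, 7.78 and 6.98, and Dhrs3, which reduces retinal to retinol, 3.26-fold. Further rises were those of Kif26b, Zfp189, Fbxo10, Pkdcc, Ctdspl and Nrtn by 1.76 to 2.12, and of Vrk2, Atxn2, C9h2orf49, Zfp622, Polm, Klhl25 and Sdc4 by 1.21 to 1.31. Rtkn, rhotekin, fell 4.38-fold from 4.24, 4.36 and 4.25 to 2.32, 1.80 and 2.34. Scn4b, a sodium channel beta subunit, fell by 2.17, Bfsp1 by 2.06, Lzts1 by 1.97, Dcakd by 1.72, Clip2 by 1.69, Efna4 by 1.64, Yeats2 by 1.48, Lzts2 by 1.45, Dchs1 by 1.35 and Sh3bp2 by 1.34. In the 6-array fit with the replicate number as a block, Vrk2, Atxn2, C9h2orf49, Zfp622, Polm, Klhl25, Sdc4 and Yeats2 were not called (adjusted p from 0.051 to 0.054). Of the genes named in this way Ctdspl, Klhl25, Scn4b, Efna4 and Lzts2 were also not called with the slide as a block (adjusted p from 0.054 to 0.12).

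**Figure D3:**
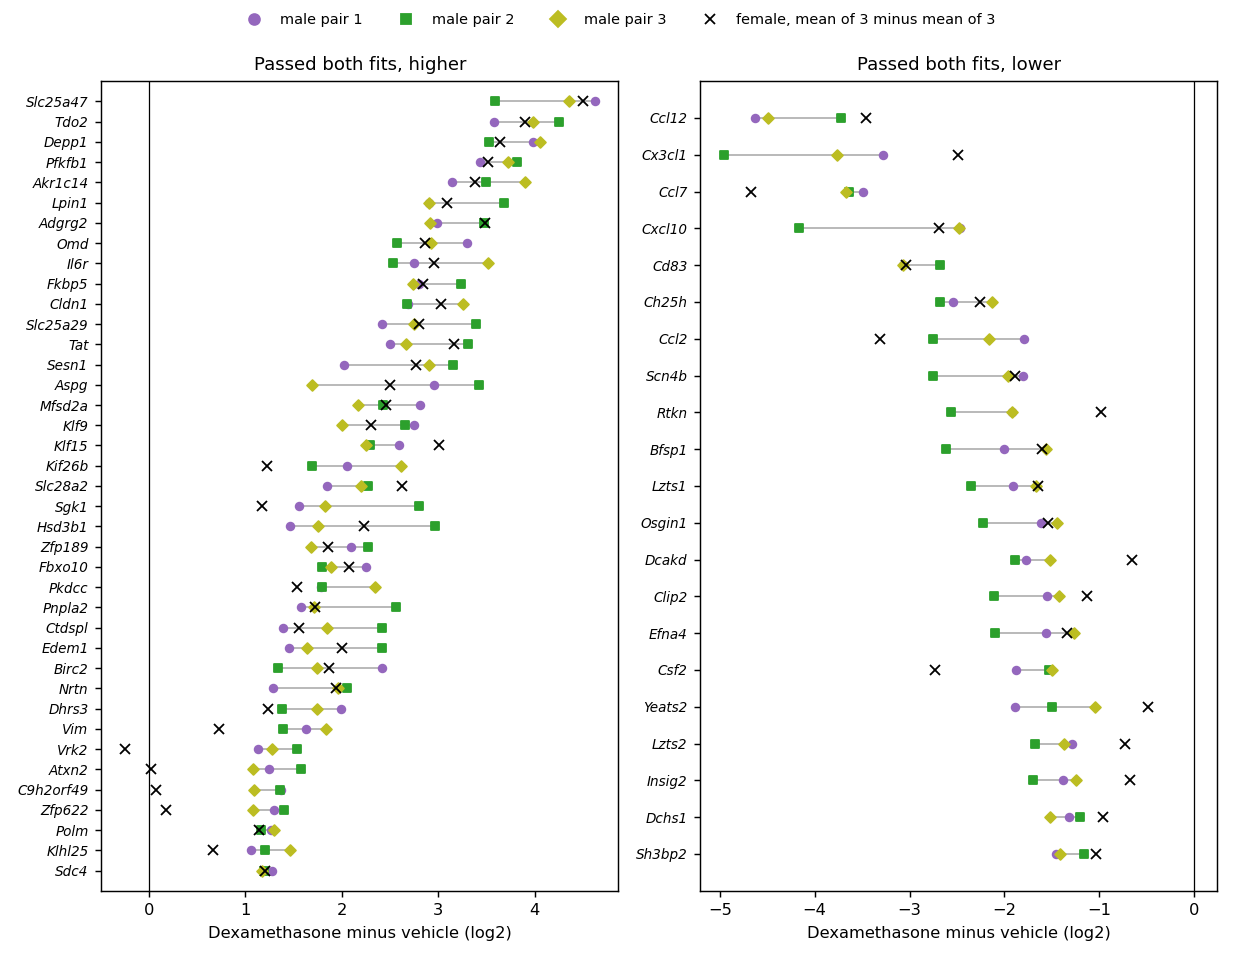
Dexamethasone minus vehicle (x axis, log2) for genes with a symbol that passed both fits, 39 of the 40 higher on the left and 21 lower on the right. Circles, squares and diamonds are the same-numbered male pairs 1 to 3, crosses the difference of the female group means. Every male pair lies on the side of its gene's call, and the genes were chosen on these male arrays. The female crosses of Vrk2, Atxn2, C9h2orf49 and Zfp622 lie near 0.

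Some genes could be seen on the treated arrays only. Among the genes tested 3674 were above background on all 3 dexamethasone arrays and on no vehicle array, and 0 the other way round, the vehicle arrays being those with fewer probes above background, whose part in it was not tested. For these a lower bound is given. Each vehicle array entered it with the gene's own signal or the dimmest signal well above background on that array, whichever was higher. That dimmest signal is not a detection limit for every probe. Zbtb16, the zinc finger factor PLZF, was at -5.43, -5.63 and -6.36 in vehicle and at -1.03, -1.22 and -1.37 in dexamethasone, at least 6.19-fold higher. Clec14a, a C-type lectin of endothelial cells, was at least 9.33-fold higher, Tent5b, a poly(A) polymerase, at least 6.77-fold, the deubiquitinase Usp2 at least 2.92-fold and Chrdl1, which encodes a BMP inhibitor, at least 2.80-fold. Their calls, made in both fits, set the treated arrays against vehicle signals not well above background, so the bounds are what these arrays measured. Aff1, a transcription elongation factor, was at least 2.56-fold higher in the 12-array fit and lost its call without any 1 of the dexamethasone arrays (adjusted p from 0.074 to 0.080). No gene met the reverse condition, so there is no bound on a fall.

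Of 15 measured clock genes 3 rose and 1 fell (2 and 3 with the replicate number as a block), with a median of -0.01. Per1, a repressor of the clock and a classical target of the hormone, was at -0.98, -1.64 and -0.88 in vehicle and at 0.20, -0.29 and 0.34 in dexamethasone, and lost its call without dexamethasone replicate 3 (adjusted p = 0.054). Hepatocyte transcription factors gave 2 rises, Klf15 and Cebpd, and no fall among 25 measured, with a median of 0.27, and 7 rises and 1 fall with the block. Cebpd, an activator of acute phase genes, rose by 1.02 ± 0.26, and its call was lost without any 1 of the dexamethasone arrays or vehicle replicate 1 or 3 (adjusted p up to 0.094).

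The remaining lists are given as counts, to be read beside the 3.76% of all measured genes that rose and the 5.99% that fell. Growth hormone signalling gave 1 rise and 1 fall among 22 measured genes, feedback inhibitors of MAP kinases 2 and 2 among 15, ligands and receptors of the EGF, FGF, HGF and VEGF families 2 and 2 among 16, and iron, copper and zinc handling 3 and 1 among 22. The cytoskeleton and adhesion list gave 1 rise, Vim, and 1 fall among 37, matrix and proteases 1 and 1 among 32, NRF2 targets 1 and 4 among 33, and apoptosis and survival 3 and 2 among 33. With the replicate number as a block these became 2 and 3, 2 and 5, 1 and 3, 4 and 1, 2 and 3, 1 and 8, 1 and 6, and 6 and 8, in the same order. Medians of these lists ran from -0.44 for the MAP kinase inhibitors to 0.11 for the growth factors.

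Of 44 measured subunits of oxidative phosphorylation none rose and 3 fell, Cox6a1 by 0.55 ± 0.13, Atp5pd by 0.50 ± 0.14 and Cox5b by 0.78 ± 0.20, none in both fits (1 rise and 4 falls with the replicate number as a block). Each of these 3 calls was lost without dexamethasone replicate 2 (adjusted p = 0.075, 0.091 and 0.062), and the others that lost one or more of them were dexamethasone replicates 1 and 3 and all vehicle replicates. The sign of Cox5b was not stable: its second probe differed by 0.18, and after normexp its own difference was above 0. Cell cycle genes gave 0 rises and 3 falls among 31 measured (1 and 7 with the replicate number as a block), with a median of -0.37, and genes of ER stress and amino acid starvation 0 and 1 among 30 (2 and 3 with the block). The single fall there was that of Slc7a5, a transporter of large neutral amino acids, by 1.52 ± 0.27. Complement and coagulation gave 1 rise and 0 falls among 41 measured genes (3 and 3 with the block).

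**Figure D4:**
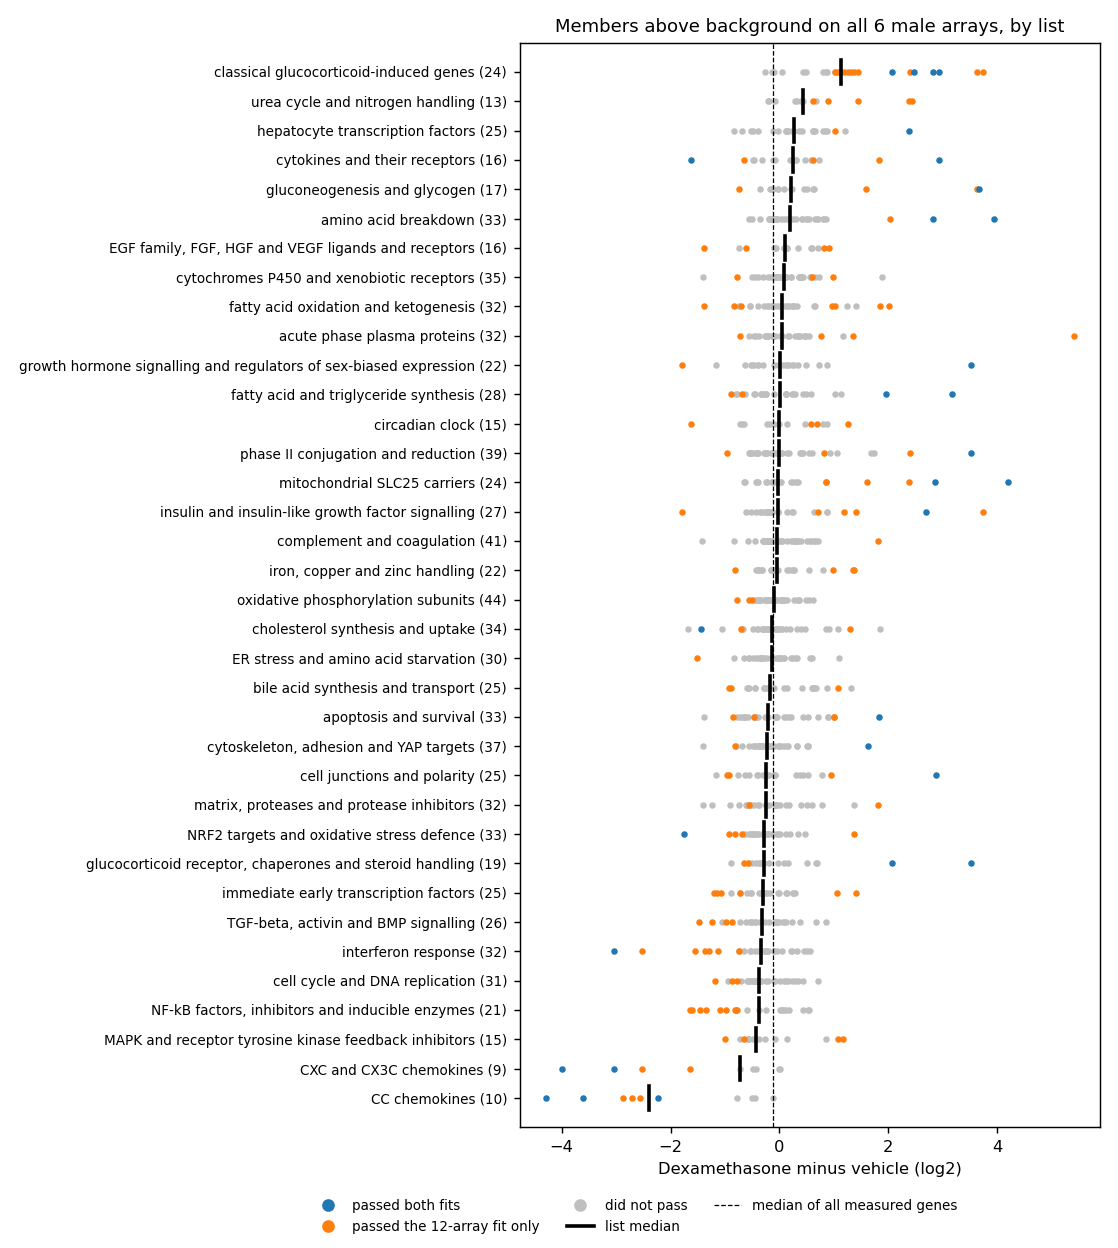
Dexamethasone minus vehicle (x axis, log2) of every measured member of 36 pathway lists (rows, number of measured members in brackets), ordered by their medians. Blue points passed both fits, orange points the 12-array fit only, grey points neither; thick bars are list medians and the dashed line the median of all measured genes, -0.125, and the classical glucocorticoid-induced genes (1.14) and CC chemokines (-2.39) stand at the ends.

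Finally, the male response was set against that of the female cultures, which have controls of their own. Female vehicle arrays sat on slides 2 and 3, with 74.8% to 78.1% of probes well above background. Female dexamethasone arrays sat on slide 3, with 72.4% to 77.9%. Male vehicle arrays, all on slide 1, had 45.7% to 55.6%. A difference of response between the sexes therefore cannot be told apart from slide and array quality. Of the 61 measured genes that rose in both male fits 57 were higher in dexamethasone in females too, and of the 32 that fell all 32 were lower, where 65% of all measured genes had the same sign in both sexes. The median female difference was 1.87 for the genes that rose, against 2.06 in males, and -1.21 for those that fell, against -1.70. The genes were chosen for their male differences, which tends to enlarge the male medians. These medians therefore do not show which sex responded more. Tested directly, the difference between the responses was called for 28 of 26557 genes (0.105%) of which 5 were measured on all male arrays. 2 of the 5 were among the 61 rises, 0 among the 32 falls. Vrk2, a serine/threonine kinase, differed by 1.31 in males and by -0.25 in females (adjusted p of the difference 0.040), and a gene without a symbol by 1.49 and -0.16 (0.040). With the replicate number as a block the sex difference was called for 0 genes (limma, 3210 at an unadjusted p under 0.05 without the block).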

How the data were processed

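RNA of each sample was labelled with Cy3 and hybridised to 1 one-colour Agilent rat array, 12 arrays in all. The deposited intensity is Agilent's processed signal, background-subtracted by Feature Extraction 9.5.3.1 per the file headers, and the deposited value table held the same numbers (540216 of 540216 within a relative tolerance of 1e-06). Outlier spots and controls were left out, and log2 signals were scaled by each array's 75th percentile. Each array gives a single value per gene, so the number of arrays limits the precision. A probe was kept where every array of some group, 3 arrays each, had it well above background, and each gene took 1 probe, giving 26557 genes tested. Of 41012 probes 19946 were named through the RefSeq gene table and the others keep the name in the files. Probe coordinates are rn3, per the file headers.

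All tests are two-sided limma 3.58.1 tests (R 4.3.3) of group means with Benjamini-Hochberg adjustment over all genes tested, at 0.05. The 12-array fit is the main one, and the 6-array fit, blocks for slide and replicate number, other scalings and filters and leaving out each array are alternatives. Errors are standard errors of that fit (n = 3 a group). The scripts were checked on simulated data. Replicate numbers come from the titles, which do not say what a number marks. Same-numbered male arrays deviated together (correlations 0.466, 0.597 and 0.417, against -0.416 to -0.053 for different numbers). Only the fits with the replicate number as a block use this pairing. The 12-array and 6-array fits, their calls and the standard errors given do not use it. For A2m the standard error was 1.20 in the 12-array fit and 0.354 with the block.

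Named genes are, by rule, the 12 largest rises and falls among measured genes with a symbol, the 6 largest bounds, up to 3 rises and 3 falls of each of 36 pathway lists, and 21 genes named in every case. The largest rises and falls had also to show no overlap between the groups. The members, lists and rule were chosen with earlier results of these data known, which holds for each list count. Single values of some of these genes are not reported here.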

Additional observations from a re-analysis of the deposited data

Results flagged for a closer look

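The response of 2 measured genes called in both male fits differed between the sexes by the test of the difference itself. Over all genes called in both fits, dim ones included, the count was 8. The female response of Vrk2 was lower than the male one by 1.57 log2 units (difference -1.57), and that of the gene listed as RGD1566264 by 1.66 (difference -1.66). Neither call stood with the replicate number as a block, and sex cannot be told apart from slide and array quality in this comparison.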

How the results depend on the processing

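Counts depended on the fit. The 1377 higher calls became 152 with the 6 male arrays alone, 247 with those arrays and the replicate block, 188 with the slide as a block, 0 on slide 1 alone (limma; 2106 genes at an unadjusted p under 0.05), 2276 after quantile normalization, 911 after normexp, 721 with genes above background on all 6 male arrays, 699 with array weights and 678 to 1547 on leaving out 1 array. The 1288 lower calls became 91, 185, 282 and 0 in the first 4 of these, 2268 with the replicate block, 2168 with each array's median, 3068 after normexp, 9277 without a filter on dim probes, 383 with array weights and 491 to 1997 on leaving out 1 array; both lowest counts came without male dexamethasone replicate 2 and both highest without male vehicle replicate 3.

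The 28 genes whose response differed between sexes became 0 with the replicate block, 2 with the slide as a block, 293 after quantile normalization, 5 with genes above background on all 12 arrays and 0 to 580 on leaving out 1 array (limma; 3210 at an unadjusted p under 0.05 in the main fit). It was 0 without female vehicle replicate 1 or 3 or any 1 of the female dexamethasone arrays, and 580 without male vehicle replicate 3.

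List genes called higher, 94, became 24 with the 6 male arrays, 154 with the replicate block, 47 with those arrays and the replicate block, 24 with the slide as a block, 0 on slide 1 alone, 59 with array weights and 59 to 92 on leaving out 1 array. Those called lower, 89, became 14, 156, 29, 12, 0, 42 and 50 to 90 in the same order. The cause of these changes was not tested.

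Of 135 named genes 131 kept their sign under every setting run, and 72 of the 128 that passed kept the call whichever male array was left out. Alb turned to 0.0516 with the slide as a block and on slide 1 alone and to 0.0871 after quantile normalization. Cox5b turned to 0.0053 after normexp, and Cyp2c11 ranged from -1.0414 (without male vehicle replicate 2) to 0.0525 (without male dexamethasone replicate 2). Cyp3a2 turned to 0.0758 with the percentile over bright probes, 0.0971 after normexp, 0.3325 with array weights and ranged from -0.7076 to 0.6205 on leaving out 1 array. The replicate block also ended the calls of Casp9 (adjusted p = 0.054), Bmal1 (0.055), Egfr (0.053) and Mcm7 (0.063).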
